A study of Mus musculus with 18 samples.

Results

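Double-positive (DP) thymocytes, named for carrying CD4 together with CD8, were compared between thymus grafts in autonomy and thymus grafts in turnover. The comparison takes 9 of the study's 18 RNA-seq libraries, chosen by their labels: 4 DP libraries of the turnover condition (RP1140A, RP1140B, RP1141A and RP1141B) and 5 DP libraries of the autonomy condition (RP1133, RP1135, RP1136, RP1137 and RP1138). The other 9 libraries hold DN3 thymocytes, the double-negative stage at which the beta chain of the T-cell receptor rearranges, under the same conditions. They were used here to ask whether a change in DP cells differed from the change in DN3 cells. Every thymus was wild type and had been in place as a graft for 28 days, per the labels' protocols, and both DP groups share this. Cells were sorted by FACS from filtered suspensions, RNA was captured on oligo-dT beads, and libraries followed the Pico Nextera protocol. The host animals, the strain, the sex and the ages are not stated in the labels. Nor do the labels say whether RP1140A and RP1140B, or RP1141A and RP1141B, come from separate animals, so the p-values measure the spread between these libraries, which may in part be technical.

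A thymus normally depends on progenitors that keep arriving from the bone marrow, and in turnover the resident thymocytes are replaced by such newcomers. In autonomy no competent newcomers arrive, and the graft sustains T-cell production from thymocytes it already holds. DP thymocytes follow the DN3 stage: cells that pass beta selection divide in a burst as they become DP, then stop dividing, rearrange the alpha chain of the T-cell receptor and await selection. A DP population therefore holds a cycling minority beside small resting cells.

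The 4 turnover libraries held 6329039 to 24191044 counted reads and the 5 autonomy libraries 5032273 to 20076446. Between 11025 and 12173 genes had a read in each. The DP markers were present in every library: Cd8a ran from 2142 to 2502 CPM (the usual depth-scaled read count, here with TMM factors) and Cd4 from 689 to 934 CPM, and neither passed the test between conditions (log2 change autonomy over turnover 0.02 for Cd4 and -0.09 for Cd8a). Of the defining DN3 markers, Il7r had no read in any turnover library and at most 5.86 CPM in the autonomy libraries. The others were read in every DP library: Ptcra at 38.9 to 138 CPM, Il2ra at 1.36 to 43.0 CPM and Notch3 at 2.05 to 21.7 CPM. Ptcra and Il2ra were higher in every autonomy library than in any turnover library, and none of these markers passed the test. The DN3 turnover library RP1141B goes against its label in part: it held 385 CPM of Cd8a and 135 CPM of Cd4, the highest DN3 levels, where the lowest DN3 turnover levels were 2.53 and 0.422 CPM (here with TMM factors over all 18 libraries). For named genes called in DP, differences between DP and DN3 that were not called without it are named, with their values. Among the DP libraries, RP1133 and RP1135 stood apart for macrophage and dendritic-cell transcripts and RP1140A for NK-cell transcripts. The RNA is from bulk populations, so fewer cells of a type and less RNA per cell cannot be told apart.

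Autonomy DP cells held less RNA of 11 genes from a list of 36 of G2 and mitosis and more RNA of a small group of genes that includes Ctse, Dtx1, Igf2bp3, Cd2 and Lat. Of 22619 genes in the table, 10339 had enough reads to be tested, and 178 passed an edgeR adjusted p of 0.05, which is 1.72% of those tested. They divided evenly, with 89 higher in autonomy (0.861%) and 89 lower (0.861%). The falls were the larger: the median log2 change was -1.05 among the genes that fell and 0.76 among those that rose, beside -0.02 over all genes tested. At least a 2-fold change was seen for 50 of the genes that fell and 23 of those that rose. Without overlap between the libraries of the groups were 408 genes higher and 427 lower, together 8.08% of the genes tested. At an unadjusted p under 0.05 there were 896 genes higher and 872 lower. With library totals in place of TMM scaling the split was 76 higher to 117 lower.

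The number of calls depended on single libraries. It was 33 without RP1140B, 59 without RP1141B, 66 without RP1133, 67 without RP1141A and 98 without RP1135, and it rose to 252 without RP1138, although the group sizes then were smaller. In all 9 fits that leave out 1 library, 26 genes were called, 12 of them higher and 14 lower. If the A and B libraries of one number are summed, so that 2 turnover libraries stand against 5, 16 genes were called, 15 of them among the 178. Of the genes named here, Ctse, Igf2bp3, C1qc, Lat, Ldhb and Actb were then called higher and Tmpo, Bub1b, Nup205, Rps4x, Fkbp5 and Kif15 lower. The 26 are the base of what follows, and other genes are given with the libraries on which their call rests. Per-library values below come in the order RP1140A, RP1140B, RP1141A, RP1141B for turnover and RP1133, RP1135, RP1136, RP1137, RP1138 for autonomy. Levels are in CPM, changes are log2 of autonomy over turnover with the standard error (SE) of the edgeR fit, and coordinates are from GENCODE M21 on GRCm38.

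**Figure D1:**
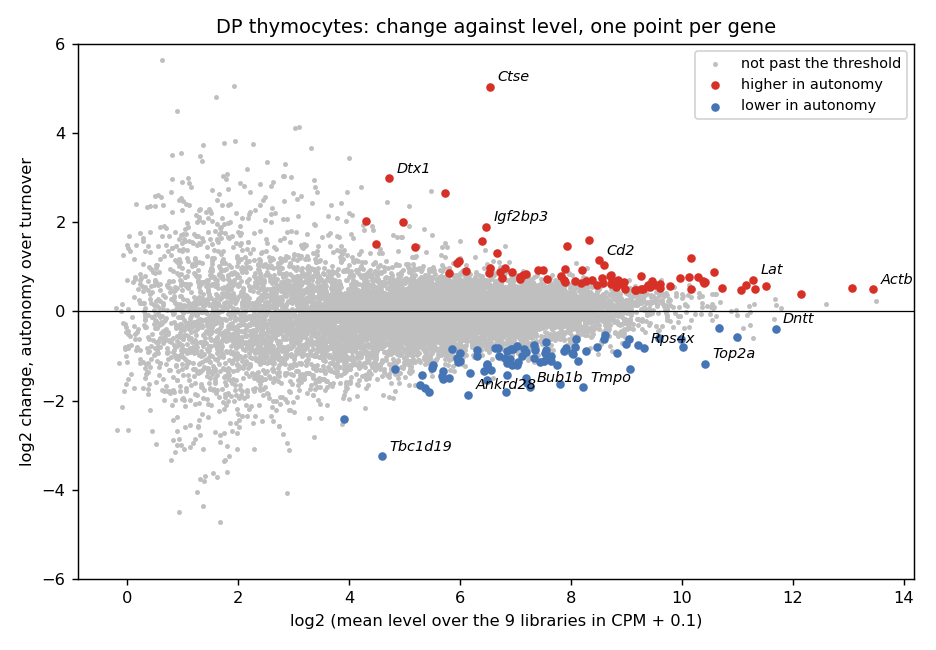
Log2 change of autonomy over turnover in DP thymocytes (vertical axis) against the log2 of the mean level over the 9 libraries in CPM plus 0.1 (horizontal axis), one point per gene for 10324 genes, with genes past the threshold in colour. The 14 genes with a group at 0 in every library and 1 gene beyond the axis limit of 6 are not drawn. Coloured points lie on both sides of 0, and the falls reach further down than most of the rises reach up.

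The fall with the smallest p was of Tmpo (ENSMUSG00000019961, chr10:91147571-91181315), which encodes the lamina-associated polypeptides LAP2 that tie the nuclear lamina to chromatin. Tmpo stood at 341, 499.7, 612 and 474 CPM in turnover and at 152, 151, 128, 138 and 174 CPM in autonomy. The lowest turnover library was above the highest autonomy library. The log2 change was -1.70 (SE 0.17, edgeR adjusted p = 0.00123), and it was called in every fit with 1 library left out (adjusted p up to 0.00795).

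From a list of 36 genes of G2 and mitosis, all tested, 11 fell, none rose and the other 25 were not called. The median change was -0.88 and 35 of the 36 estimates were below 0, the exception being the condensin gene Smc4 at 0.13. The 11 were Bub1b, Ube2c, Anln, Prc1, Top2a, Bub1, Ccna2, Plk1, Mki67, Ncapd2 and Cdc20. Their number without 1 library ran from 5 (without RP1140B) to 15 (without RP1138), and it was 7 without RP1140A or RP1133, while the median of the list stayed between -1.02 and -0.76. With the A and B libraries of one number summed, or with RP1133 and RP1135 both left out, 1 mitotic gene was called. At an unadjusted p under 0.05, 30 of the 36 were lower, and the groups did not overlap for 16. Summed over the list, the level was 16496, 14686, 11346 and 13416 CPM in turnover and 7765, 11448, 8142, 7111 and 11217 CPM in autonomy. The sums touch at their edges: RP1135 in autonomy exceeded RP1141A in turnover. RP1135 and RP1138 were the high ones within autonomy.

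Bub1b (ENSMUSG00000040084, chr2:118598211-118641591) encodes the spindle-checkpoint protein BubR1. Its level was 295, 249.6, 166 and 279 CPM in turnover and 71.0, 76.7, 76.6, 52.0 and 105 CPM in autonomy. No autonomy library reached the lowest turnover library, and the log2 change was -1.70 (SE 0.22, edgeR adjusted p = 0.00367). Anln (ENSMUSG00000036777, chr9:22332012-22389188), the cytokinesis scaffold anillin, went from 190.1, 143, 108 and 124 CPM to 32.4, 46.4, 58.9, 46.6 and 56.8 CPM. The groups were again apart, with a log2 change of -1.55 (SE 0.23, edgeR adjusted p = 0.00838). Ube2c (ENSMUSG00000001403, chr2:164769898-164778822), the ubiquitin-conjugating enzyme of the anaphase-promoting complex, went from 471, 362, 351 and 406 CPM to 154, 229, 161, 152 and 216 CPM, a log2 change of -1.12 (SE 0.16, edgeR adjusted p = 0.00832). These 3 genes were called in all 9 fits with 1 library left out.

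Prc1 and Top2a, named because their values were seen, were likewise called in all 9. Prc1, which bundles microtubules of the spindle midzone, fell by 1.20 on the log2 scale (SE 0.19, edgeR adjusted p = 0.00992). Top2a, the topoisomerase that untangles replicated chromosomes, stood at 1639 to 2349 CPM in turnover and at 598 to 1278 CPM in autonomy and fell by 1.17 (SE 0.20, edgeR adjusted p = 0.0148). Cyclin A2 (Ccna2) went from 409, 461, 269 and 290.1 CPM to 87.2, 98.0, 133, 63.8 and 194 CPM and fell by 1.64 (SE 0.28, edgeR adjusted p = 0.016). Its call was lost without RP1140B (adjusted p = 0.0609). The highest autonomy level of Ccna2 and of Top2a was that of RP1138.

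The remaining calls of this kind were less firm. Plk1, the polo-like kinase of mitotic entry, fell by 1.42 (SE 0.28, edgeR adjusted p = 0.0271) and Mki67, the antigen of cycling cells, by 1.30 (SE 0.26, adjusted p = 0.0293). Mki67 ran from 606 to 990.5 CPM in turnover and from 182 to 497 CPM in autonomy. Plk1 kept its call without RP1141A, RP1136 or RP1138 and lost it without each of the other 6 libraries, and Mki67 lost it without RP1140A, RP1140B, RP1141B, RP1133 or RP1136. The highest adjusted p was 0.0808 for both, without RP1140B. Bub1, a checkpoint kinase, fell by 1.5 (SE 0.26, edgeR adjusted p = 0.0157, lost without RP1140B at 0.0532). Cdc20, the activator of the anaphase-promoting complex, fell by 0.89 (SE 0.21, adjusted p = 0.0485, kept without RP1135 or RP1138 and lost without each of the other 7, up to 0.117). Ncapd2, a condensin subunit, fell by 0.90 (SE 0.20, edgeR adjusted p = 0.0457, kept without RP1138 and lost without each of the other 8, up to 0.126). Outside the list, Ncaph, of the same complex, fell by 1.60 (SE 0.31, edgeR adjusted p = 0.026), a call lost without RP1140B, RP1141B, RP1135 or RP1136 (up to 0.0808). Kif15, a spindle kinesin, fell by 1.14 (SE 0.20, edgeR adjusted p = 0.016), a call lost without RP1140B (0.0557).

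The promoters of mitotic genes are shown because these members moved together. The CHR element, whose core is TTTGAA, is bound by the DREAM and MuvB complexes that switch mitotic genes off in resting cells and on in G2, and CCAAT is the site of NF-Y, which often lies beside it. Both were searched on both strands in the 250 bases before to 50 bases after each gene's start in RefSeq's table for GRCm38.p6, and each hit was counted separately even where hits of the different motifs shared a base. Both motifs were in the window of 70% of the 30 listed mitotic genes with an entry (21 of 30), and of 8 of the 10 with an entry among the 11 that fell. The share was 7.12% of all 27025 promoters and 5.21% of the 8084 tested genes with an entry. Among all genes that fell it was 20% (14 of 70), and among all genes that rose 4.17% (3 of 72). The 14 include the 8 mitotic list members just counted, so the 20% is not a separate result. A match describes the letters alone. Printed here, 5′ to 3′ and ending just before the start, are the 150 bases upstream of the 5 fallen list members with both motifs inside them, followed by Dtx1, the gene of the Notch pathway that rose, for contrast. Capitals mark hits of either motif, as written or as the reverse complement (TTCAAA for the first and ATTGG for the second). They lie at chr2:164769779-164769928 on the plus strand for Ube2c, and on the minus strand at chr4:118437344-118437493 for Cdc20, chr7:135716380-135716529 for Mki67, chr11:99024190-99024339 for Top2a, chr6:125191587-125191736 for Ncapd2 and chr5:120711670-120711819 for Dtx1.
Ube2c: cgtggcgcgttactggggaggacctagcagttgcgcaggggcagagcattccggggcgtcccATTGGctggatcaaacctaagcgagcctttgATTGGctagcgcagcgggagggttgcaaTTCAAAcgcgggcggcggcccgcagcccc
Cdc20: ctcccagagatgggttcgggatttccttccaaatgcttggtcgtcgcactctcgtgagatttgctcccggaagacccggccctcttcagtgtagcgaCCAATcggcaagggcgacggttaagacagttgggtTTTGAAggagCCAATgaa
Mki67: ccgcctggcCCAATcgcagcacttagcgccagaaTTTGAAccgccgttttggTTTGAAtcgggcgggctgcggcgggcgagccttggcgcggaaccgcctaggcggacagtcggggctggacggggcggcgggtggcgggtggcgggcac
Top2a: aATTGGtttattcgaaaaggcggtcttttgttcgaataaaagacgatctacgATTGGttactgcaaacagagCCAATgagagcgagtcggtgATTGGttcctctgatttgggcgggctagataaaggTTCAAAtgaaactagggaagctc
Ncapd2: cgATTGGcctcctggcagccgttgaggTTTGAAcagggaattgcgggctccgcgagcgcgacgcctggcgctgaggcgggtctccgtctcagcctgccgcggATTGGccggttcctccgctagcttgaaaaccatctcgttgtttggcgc
Dtx1: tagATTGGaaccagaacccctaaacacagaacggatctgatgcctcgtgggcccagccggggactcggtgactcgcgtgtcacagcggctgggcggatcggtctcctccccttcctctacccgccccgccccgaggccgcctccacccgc

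In Ube2c, Cdc20 and Top2a the TTTGAA element lies within the last 30 bases before the RefSeq start, and in Mki67 and Ncapd2 it lies further upstream. The Dtx1 stretch holds a single CCAAT and no TTTGAA. All starts used for these stretches are RefSeq's, and GENCODE places some of them elsewhere. By the GENCODE coordinates given in this text, the Dtx1 stretch lies inside the gene. The Ube2c stretch, with its TTTGAA element, reaches into the GENCODE gene.

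**Figure D2:**
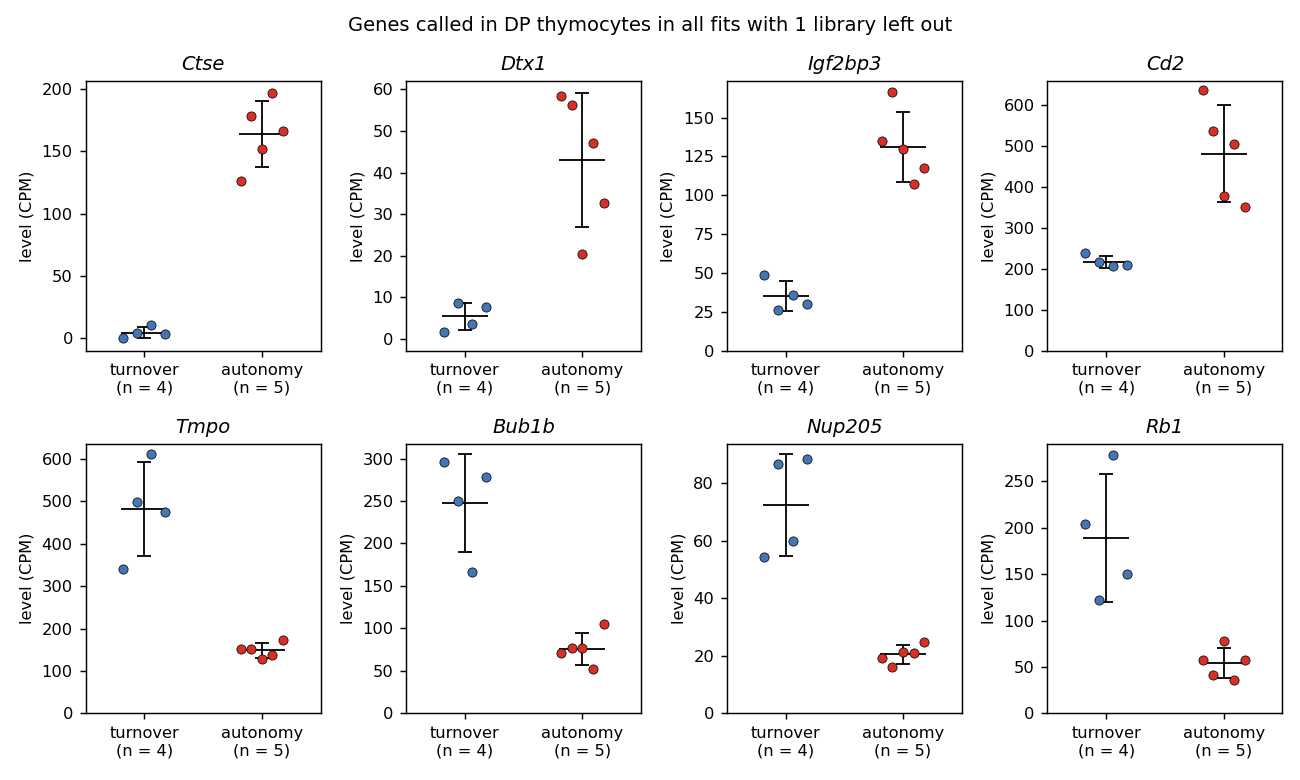
Level in CPM (vertical axes) of 8 genes in each of the 4 turnover and 5 autonomy DP libraries, one point per library, with the group mean and its SD. Ctse, Dtx1, Igf2bp3 and Cd2 are higher in every autonomy library than in any turnover library, and Tmpo, Bub1b, Nup205 and Rb1 are lower in every one.

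DNA replication genes moved less than mitotic genes. Of 40 genes of S phase, all tested, 2 fell and none rose, with a median of -0.38. The members that fell were Mcm6, a subunit of the replicative helicase, at -0.81 (SE 0.17, edgeR adjusted p = 0.0301), and Pold1, the catalytic subunit of DNA polymerase delta, at -1.34 (SE 0.29, adjusted p = 0.0359). Mcm6 kept its call without RP1141B, RP1136 or RP1138 and lost it without each of the other 6 libraries (up to 0.0955). Pold1 kept its call without RP1135 or RP1138 and lost it without each of the other 7 (up to 0.105). Pcna, the sliding clamp, named after its value was seen, stood at 348 to 534 CPM in turnover and 318 to 471 CPM in autonomy and did not pass (log2 change -0.24, edgeR adjusted p = 0.499). The difference between the S phase and the G2 and mitosis lists was not tested. From the histone list, 1 of 19 tested genes fell (median -0.54): H2afx, the variant phosphorylated at DNA breaks, changed by -1.0 (SE 0.20, edgeR adjusted p = 0.0271), a call kept without RP1141A, RP1136 or RP1138 and lost without each of the other 6 (up to 0.0808).

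Of 20 lamina and envelope genes tested, Tmpo and Lmnb1 fell and none rose, with a median of -0.46. Lmnb1, lamin B1, changed by -0.80 (SE 0.16, edgeR adjusted p = 0.0297), a call lost without RP1140B, RP1141A, RP1141B, RP1133 or RP1136 (up to 0.0900). Nup205 (ENSMUSG00000038759, chr6:35177421-35247596), which encodes a scaffold nucleoporin of the inner ring of the nuclear pore, went from 54.4, 86.8, 59.9 and 88.2 CPM to 19.2, 16.1, 21.3, 21 and 24.8 CPM. The autonomy libraries lay close together and well below turnover, with a log2 change of -1.82 (SE 0.25, edgeR adjusted p = 0.00647, called in all 9 fits). Of 27 chromatin and DNA methylation regulators tested, 3 fell and none rose (median -0.24). They were Dnmt1, the maintenance DNA methyltransferase, at -1.10 (SE 0.19, edgeR adjusted p = 0.0157), Ctcf, the architectural zinc-finger factor, at -0.63 (SE 0.12, adjusted p = 0.0224), and the cohesin subunit Rad21, named because its value was seen, at -0.82 (SE 0.19, adjusted p = 0.0494). Without RP1140B none of the 3 was called. Ctcf was also lost without RP1141A, RP1141B or RP1133, and Rad21 without every library except RP1135. The highest adjusted p were 0.0532 for Dnmt1, 0.0777 for Ctcf and 0.116 for Rad21.

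Rb1 (ENSMUSG00000022105, chr14:73183673-73325822), the retinoblastoma protein that restrains entry into S phase, fell as well. Its level was 204, 122, 278 and 150.4 CPM in turnover and 57.8, 41.3, 77.8, 36.2 and 57.5 CPM in autonomy. The groups did not overlap, and the log2 change was -1.80 (SE 0.27, edgeR adjusted p = 0.00967, called in all 9 fits). Rb1 moved in the same direction as the mitotic genes, although its protein opposes division. Zfp36, which promotes decay of AU-rich messenger RNA, rose by 0.97 (SE 0.23, edgeR adjusted p = 0.0492), kept without RP1141B and lost without each of the other 8 (up to 0.131). Myc stood at 33.4, 45.1, 55.4 and 45.7 CPM in turnover and 20.0, 18.5, 20.3, 17.7 and 33.7 CPM in autonomy and did not pass (log2 change -1.03, edgeR adjusted p = 0.0849).

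In DN3 cells 24 of the 36 mitotic genes rose in autonomy and none fell, with a median of 0.75 beside -0.05 over all genes tested in DN3. Over all 10766 of those, 703 rose (6.53%) and 899 fell (8.35%). The S phase list was similar, with 31 of 40 genes higher in DN3 autonomy, none lower and a median of 0.75. Whether autonomy acted differently in DP and in DN3 was tested in a single edgeR model of all 18 libraries, in which 633 of 11521 genes passed an adjusted p of 0.05 (5.49%). The effect was lower in DP than in DN3 for 28 of the 36 mitotic genes and 20 of the 40 S phase genes, and higher for none. Over all genes tested it was lower in DP for 301 (2.61%) and higher for 332 (2.88%). For the mitotic list the count ran from 26 to 30 with 1 library left out, and it was 27 without the DN3 turnover library RP1141B. Anln differed by -2.72 (SE 0.32, edgeR adjusted p = 0.000125): it went from 141 ± 35.7 to 48.2 ± 10.5 CPM in DP (SD, n = 4 and n = 5) and from 55.8 to 126 CPM in DN3. Ccna2 differed by -2.54 (SE 0.38, edgeR adjusted p = 0.000641), and Kif15 by -2.38 (SE 0.30, adjusted p = 0.000167). Plk1 differed by -2.33 (SE 0.38, edgeR adjusted p = 0.00119), with -1.42 in DP and 0.91 in DN3. For Anln, Ccna2, Kif15 and Plk1 the DP fall and the DN3 rise each passed their own test.

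**Figure D3:**
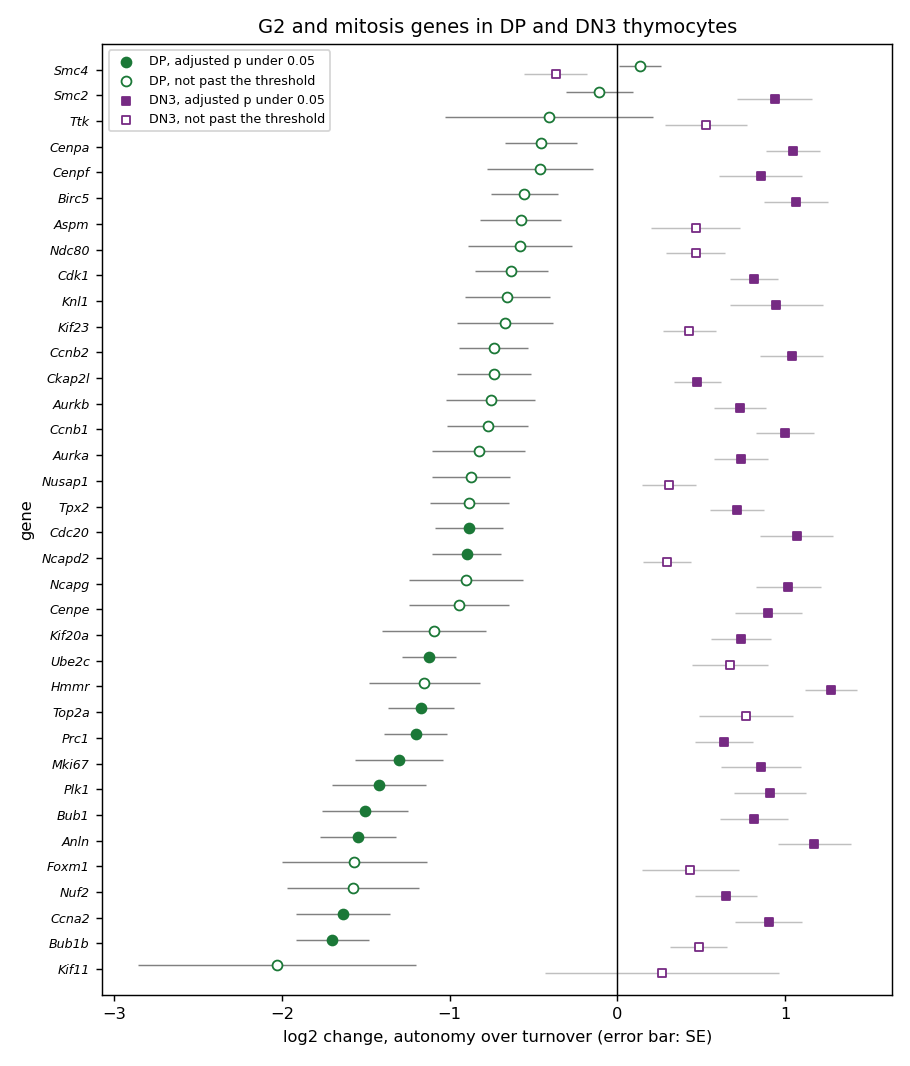
Log2 change of autonomy over turnover with its SE (horizontal axis) for the 36 genes of the G2 and mitosis list (vertical axis), in DP as circles and in DN3 as squares, filled where the edgeR adjusted p was under 0.05. All DP circles except Smc4 lie below 0, and all DN3 squares except Smc4 lie above it.

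Over all 178 called genes the comparison with DN3 was mixed. Of the 89 that fell in DP, 13 also fell in DN3 and 13 rose there, and the difference between the cell types was called for 50. Of the 89 that rose in DP, 19 also rose in DN3 and 4 fell there, and the difference was called for 24. The other calls had no call in DN3 or, for 4 of the 178, were not tested there. Tmpo was one of those with no call in DN3 (257 to 254 CPM, log2 change -0.02), and its difference was -1.67 (SE 0.40, edgeR adjusted p = 0.0172). Nup205 differed by -2.12 (SE 0.27, adjusted p = 0.000167), from -1.82 in DP and 0.30 in DN3. For Rb1 the difference of -1.73 did not pass (edgeR adjusted p = 0.111).

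Several genes rose in DP cells and in DN3 cells alike. The largest rise with reads in both groups was of Ctse (ENSMUSG00000004552, chr1:131638306-131675505), which encodes cathepsin E, an intracellular aspartic protease. Ctse stood at 0, 4.34, 10.7 and 3.87 CPM in turnover and at 126, 178, 152, 196 and 166 CPM in autonomy. No library came near the other group. The log2 change was 5.04 (SE 0.63, 95% interval 3.68 to 6.39, edgeR adjusted p = 0.00288), and it was called in all 9 fits (adjusted p up to 0.0199). In DN3 Ctse rose by 3.08 (SE 0.24, edgeR adjusted p = 3.77e-05), and the difference between the cell types did not pass (1.96, adjusted p = 0.0798). Of the 11 cathepsin genes tested, only Ctse passed in DP, and the median of the list was 0.42.

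Igf2bp3 (ENSMUSG00000029814, chr6:49085223-49214957) encodes an RNA-binding protein of fetal tissues and fetal haematopoiesis. It stood at 48.5, 26.5, 35.9 and 30.2 CPM in turnover and at 135, 166, 129.7, 107 and 118 CPM in autonomy. The groups were far apart, with a log2 change of 1.90 (SE 0.23, edgeR adjusted p = 0.00284, called in all 9 fits). In DN3 the change was 1.66 (SE 0.23, edgeR adjusted p = 0.000833) and the difference was 0.23 (adjusted p = 0.748). The other 3 tested members of a list of Igf2bp, Lin28 and Hmga genes did not pass in DP, and Lin28a, Lin28b, Igf2 and Hmga2 had no read in any DP library. The promoter of Igf2bp3 was 1 of the 3 among risen genes with both motifs in the RefSeq window.

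Dtx1 was the member of the Notch list that rose. Dtx1 (ENSMUSG00000029603, chr5:120680202-120711927) encodes Deltex1, a ubiquitin ligase and textbook target of Notch, the receptor that drives early T-cell commitment and is shut down in DP cells. It stood at 1.55, 8.68, 3.57 and 7.5 CPM in turnover and at 58.4, 56.2, 20.4, 47.2 and 32.7 CPM in autonomy. The lowest autonomy library, RP1136, was still above the highest turnover library. The log2 change was 2.99 (SE 0.51, edgeR adjusted p = 0.016), and it was called in all 9 fits although narrowly without RP1141A (0.0482). It was not called with RP1133 and RP1135 both left out (2.64, edgeR adjusted p = 0.112). Dtx1 also rose in DN3, by 1.30 (SE 0.28, adjusted p = 0.0099), and the difference was 1.69 (adjusted p = 0.0811).

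The other Notch list members did not pass. Of 9 tested, Dtx1 rose and none fell, with a median of 0.64. Estimates ran from -1.66 to 2.99, with 6 above 0 and 3 below. At an unadjusted edgeR p under 0.05, 3 were higher and 2 lower, and without RP1138 1 member was called lower. Hes1, Hes5, Hey1, Heyl and Nrarp had too few reads to be tested. Ptcra, the pre-TCR alpha chain, stood at 41.3, 51.0, 38.9 and 53.5 CPM in turnover and at 75.4, 138, 86.0, 76.7 and 61.5 CPM in autonomy (log2 change 0.92, edgeR adjusted p = 0.0835). Il2ra, the CD25 chain that marks DN2 and DN3 cells, stood at 4.19, 11.7, 15.6 and 1.36 CPM in turnover and at 30.4, 39.7, 26.3, 43.0 and 18.5 CPM in autonomy (1.92, edgeR adjusted p = 0.107). For both the groups did not overlap, but neither passed the test. Notch1 (0.35) and Notch3 (0.66) overlapped between the groups. From a list of DN-stage markers, 9 genes were tested and none passed, with a median of 0.78, and their summed level was 145 to 218 CPM in turnover and 187 to 275 CPM in autonomy. The part of DN-stage transcripts in the Dtx1 change was not tested.

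Of 9 tested genes of the CD2 and SLAM family, 2 rose and none fell, with a median of 0.43. Cd2 (ENSMUSG00000027863, chr3:101275899-101287939), an adhesion receptor that binds CD48, stood at 239.5, 216, 207 and 209.8 CPM in turnover and at 638, 538, 379, 505 and 352 CPM in autonomy. Turnover libraries were alike, autonomy libraries spread more, and the groups were apart. The log2 change was 1.15 (SE 0.17, edgeR adjusted p = 0.00935, called in all 9 fits). In DN3, Cd2 went from 27.5 to 228 CPM (3.06, SE 0.65, edgeR adjusted p = 0.00937), and the difference of -1.91 did not pass (adjusted p = 0.122). Slamf6, a SLAM receptor that DP cells use in the selection of innate-like T cells, rose by 0.49 (SE 0.11, edgeR adjusted p = 0.0406). Its call held without RP1136 or RP1138 and was lost without each of the other 7 libraries (up to 0.125).

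Some genes of proximal T-cell receptor signalling rose. Of 21 tested genes of the CD3 chains and proximal signalling, 3 rose, none fell, and the median was 0.23. Lat (ENSMUSG00000030742, chr7:126363824-126369570), the membrane adaptor that couples the receptor to its downstream pathways, stood at 1929, 1813, 1814 and 1825 CPM in turnover and at 3214, 3288, 2710.1, 2875 and 3031 CPM in autonomy. Its groups were tight and far apart, with a log2 change of 0.71 (SE 0.08, edgeR adjusted p = 0.00215, called in all 9 fits). In DN3 the Lat change was -0.43 and did not pass (edgeR adjusted p = 0.153), and the difference of 1.14 did (SE 0.22, adjusted p = 0.00453). Lck, the kinase that phosphorylates the CD3 chains, stood at 3696 to 4115 CPM in turnover and at 4652 to 5417 CPM in autonomy and rose by 0.38 (SE 0.07, edgeR adjusted p = 0.0163), a call lost without RP1140B (0.0777). Its difference from DN3 was 0.76 (SE 0.19, edgeR adjusted p = 0.0224). Cd3g, named because its value was seen, rose by 0.69 (SE 0.12, edgeR adjusted p = 0.019, lost without RP1140B, RP1141A or RP1141B, up to 0.0777). Over the 21 genes of the list, the effect was higher in DP than in DN3 for 8 and lower for none. The shares over all genes tested were 2.88% and 2.61%. In DN3 itself the median of the list was -0.40, with 2 members called higher and 4 lower. Cd3e did not pass in DP (0.10, edgeR adjusted p = 0.803).

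The DP identity genes moved in both directions. From the 18 genes listed for the double-positive stage, 2 were called higher and 2 lower, 14 did not pass, and the median was -0.01. Over all genes tested the share called was 0.861% each way. The groups did not overlap for 3 members that were higher and 4 that were lower, beside 8.08% of all genes tested. Bcl6 rose by 0.70 (SE 0.14, edgeR adjusted p = 0.0297) and the co-receptor chain Cd8b1 by 0.50 (SE 0.10, adjusted p = 0.0301). Both calls were lost without RP1140B, RP1141A, RP1141B, RP1133 or RP1135, and beyond these Bcl6 without RP1137 and Cd8b1 without RP1136 (up to 0.0934 and 0.0928). Dntt, the template-independent polymerase TdT, fell by 0.39 (SE 0.07, edgeR adjusted p = 0.0163), from 3668 to 4030 CPM in turnover to 2721 to 3182 CPM in autonomy. That call was lost without RP1140B or RP1141B (0.0532 for both), and Dntt fell in DN3 too, by 0.96 (SE 0.17, edgeR adjusted p = 0.00367). Tcf12, which encodes the E protein HEB, fell by 0.52 (SE 0.12, adjusted p = 0.0481, kept without RP1138 and lost without each of the other 8 libraries, up to 0.143). Rag1 (0.11), Rag2 (0.40) and Ccr9 (-0.01) did not pass. Among 21 T-lineage transcription factors Myb fell, none rose and the median was -0.11. Myb, a driver of DP survival, fell by 0.61 (SE 0.12, edgeR adjusted p = 0.0296, lost without RP1140B, RP1141A, RP1141B, RP1133 or RP1135, up to 0.0957). Tcf7 (-0.19) and Bcl11b (-0.31) did not pass.

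Genes of selection and of cytokine response gave single calls. Of 19 tested genes of positive selection, 1 rose, none fell and the median was 0.42. Itm2a, a membrane protein induced during positive selection, stood at 84.7, 132, 126 and 149 CPM in turnover and at 471, 366, 186, 476 and 209 CPM in autonomy. The autonomy libraries RP1136 and RP1138 were the low ones, yet above turnover, and the log2 change was 1.47 (SE 0.29, edgeR adjusted p = 0.027). The call held without RP1136, RP1137 or RP1138 and was lost without each of the other 6 libraries (up to 0.0808). Cd69, an early activation marker, stood at 70.8, 43.5, 40.0 and 59.0 CPM against 75.2, 138, 80.1, 110.3 and 86.8 CPM, without overlap, and did not pass (0.88, edgeR adjusted p = 0.0878). Ccr7, a receptor that guides selected cells to the medulla, did not pass (1.02). Of 13 genes of IL-7 receptor and STAT5 signalling, Il2rg, the common gamma chain, rose by 0.64 (SE 0.12, edgeR adjusted p = 0.0178, lost without RP1140B or RP1141A, up to 0.0649), and the median was 0.30. Bcl2 (0.30) and Bcl2l1 (-0.11), survival genes, did not pass, nor did any of the 12 tested Bcl2 family members. Of 8 Gimap GTPases, Gimap9 rose by 0.57 (SE 0.13, edgeR adjusted p = 0.0471, kept without RP1136 or RP1138 and lost without each of the other 7, up to 0.117), and the median was 0.55.

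The actin cytoskeleton gave 6 rises. Of 24 genes tested, Actb, Cfl1, Tmsb10, Arpc1b, Tmsb4x and Pfn1 rose and none fell, with a median of 0.17. Actb (beta-actin, chr5:142903115-142906754) stood at 8914, 8889.7, 9540.5 and 8848 CPM in turnover and at 11869, 12932, 12047, 14235 and 13059 CPM in autonomy. The groups were clearly apart, with a log2 change of 0.50 (SE 0.06, edgeR adjusted p = 0.00284, called in all 9 fits), and Actb rose in DN3 by a like amount (0.46, SE 0.14, adjusted p = 0.0451). Cfl1, the filament-severing cofilin, rose by 0.47 (SE 0.09, edgeR adjusted p = 0.026). Tmsb10, a thymosin that binds actin monomers, stood at 174, 116, 160.1 and 149 CPM against 565, 715, 335, 484 and 179.9 CPM. RP1138 was barely above turnover, and the log2 change was 1.61 (SE 0.31, edgeR adjusted p = 0.026). Tmsb4x rose by 1.19 (SE 0.25, adjusted p = 0.0321) although RP1138, at 788 CPM, overlapped RP1140A at 794 CPM.

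These actin calls rested on single libraries except for Actb. Without RP1140B, RP1141A, RP1141B or RP1133 none of Cfl1, Tmsb10, Arpc1b, Tmsb4x and Pfn1 was called. Without RP1135 the calls of Arpc1b, Tmsb4x and Pfn1 were lost too, and without RP1136 those of Tmsb4x and Pfn1. Pfn1 was also lost without RP1140A or RP1137. The highest adjusted p were 0.0629 for Cfl1, 0.082 for Tmsb10, 0.0909 for Arpc1b, 0.0968 for Tmsb4x and 0.122 for Pfn1. Arpc1b and Pfn1 are named because their values were seen. Several of these genes have processed pseudogenes, so how their reads were assigned is uncertain. Tes, a LIM-domain protein of focal adhesions, rose by 1.14 (SE 0.26, edgeR adjusted p = 0.048, kept without RP1136 and lost without each of the other 8 libraries, up to 0.113).

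Other large rises were of genes with low levels in turnover. Ckb, the brain-type creatine kinase, stood at 7.61, 19.2, 10.4 and 9.21 CPM in turnover and at 64.6, 27.9, 45.1, 46.9 and 50.3 CPM in autonomy, with a log2 change of 2.0 (SE 0.36, edgeR adjusted p = 0.018). It was lost without RP1141A, RP1141B or RP1133 (up to 0.0609). Phlda1, also known as T-cell death-associated gene TDAG51, went from 3.60 to 10.4 CPM in turnover to 18.2 to 48.2 CPM in autonomy (2.04, SE 0.46, edgeR adjusted p = 0.0442), kept without RP1136, RP1137 or RP1138 and lost without each of the other 6 (up to 0.12). Phlda1 rose in DN3 as well, by 3.26 (SE 0.43, adjusted p = 0.000683). Wdr27 rose by 1.46 (SE 0.33, edgeR adjusted p = 0.046, kept without RP1137 alone, up to 0.112). Kbtbd3 rose by 1.51 (SE 0.35, edgeR adjusted p = 0.0472) and was called in none of the 9 fits with 1 library left out (up to 0.117), although its groups did not overlap.

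Some genes had no read in any turnover library, so each fold is a lower bound, computed as if every turnover library had held 3 counts. C1qc was at 34.6, 7.99, 9.28, 10.2 and 4.21 CPM in the autonomy libraries, which is at least 47.2-fold higher (edgeR adjusted p = 0.00935), or at least 28.2-fold without its highest library RP1133. Wscd1 was at 18, 2.63, 1.22, 21.0 and 8.74 CPM, at least 36.7-fold higher (adjusted p = 0.019, lost without RP1140B at 0.0605). Cmpk2, a mitochondrial nucleotide kinase induced by interferon, was at 7.80, 6.05, 3.09, 9.44 and 4.53 CPM, at least 22-fold higher (edgeR adjusted p = 0.0157, lost without RP1140B at 0.0532). Samhd1, which degrades deoxynucleotides and restricts viruses, was at 11.4, 8.56, 4.31, 8.73 and 5.50 CPM, at least 27.4-fold higher (adjusted p = 0.0103). Samhd1 is named because its value was seen, and it and C1qc were called in all 9 fits.

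C1qc encodes a chain of complement C1q, which tissue macrophages make, and it was read beside the whole macrophage list. Of 14 macrophage markers 9 were tested, C1qc rose, none fell, and the median was 2.50. Their summed level was 71.9, 25.7, 78.7 and 35.0 CPM in turnover and 295, 341, 129, 155 and 66.2 CPM in autonomy. RP1138 lay within the turnover range and the other 4 autonomy libraries above it. Cd14 had no read in any DP library, and Csf1r and Adgre1 were too low to be tested. The dendritic-cell list summed to 33.7, 11, 12.3 and 19.9 CPM in turnover and to 107, 281, 37.9, 33.1 and 8.42 CPM in autonomy, with RP1133 and RP1135 the highest. None of its 6 tested genes passed, and Xcr1, Clec9a, Ccl22 and Batf3 had no read. The part of such cells in the changes was not tested. With RP1133 and RP1135 left out together, a choice made after these sums were seen, 9 genes were called, 6 higher and 3 lower. Ctse, Igf2bp3, Tmpo, Lat, Ube2c, Ldhb and Actb were among them, with log2 changes of 5.11, 1.75, -1.72, 0.64, -1.17, 0.75 and 0.54. That fit compares 4 libraries with 3 and kept the call of 7 of the 69 called genes that the naming rule picked. Of the 11 mitotic calls it kept 1.

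**Figure D4:**
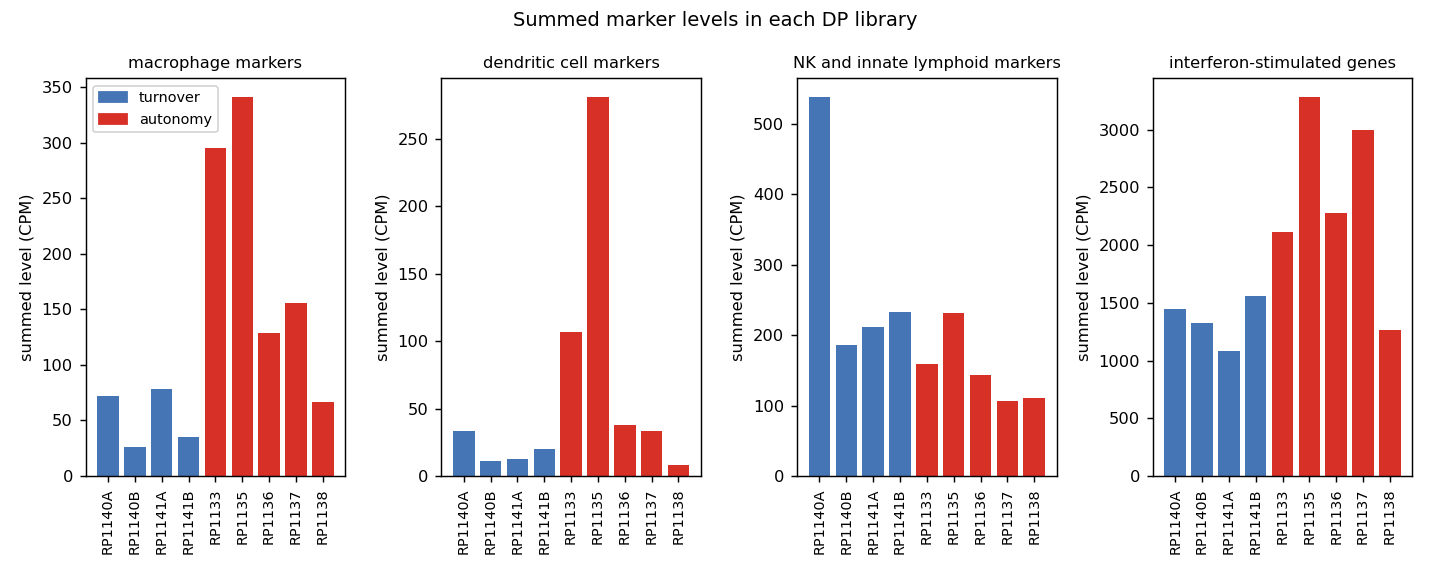
Summed level in CPM (vertical axes, from 0) of macrophage markers, dendritic-cell markers, NK and innate lymphoid markers and interferon-stimulated genes in each of the 9 DP libraries, turnover and autonomy in different colours. Macrophage and dendritic sums are highest in RP1133 and RP1135, the NK sum in RP1140A, and the interferon sum in RP1135 and RP1137, with RP1138 inside the turnover range.

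The summed level of interferon-stimulated genes was 1449, 1329, 1087 and 1560.5 CPM in turnover and 2113, 3280, 2275, 3001 and 1266 CPM in autonomy. RP1138 lay within the turnover range and the other 4 autonomy libraries above it, with no test of the sum. Of 29 genes tested, Irf9, Trim30a and Igtp rose and none fell, with a median of 1.06, and 24 of the estimates were above 0. At an unadjusted p under 0.05, 16 were higher. Without RP1138 there were 12 calls, and without any other single library 0 or 1, while DESeq2 called 14 of them. Irf9, the DNA-binding subunit of the interferon-activated ISGF3 complex, stood at 24.7, 38.4, 29.3 and 66.3 CPM in turnover and at 149, 121, 101, 162 and 61.2 CPM in autonomy (1.58, SE 0.34, edgeR adjusted p = 0.0362). Trim30a rose by 1.32 (SE 0.29, edgeR adjusted p = 0.0395), and Igtp, an interferon-induced GTPase named because its value was seen, by 0.58 (SE 0.14, adjusted p = 0.0493). Irf9 kept its call without RP1141B, RP1136 or RP1138, and Trim30a and Igtp kept theirs without RP1138, the highest adjusted p being 0.106, 0.0955 and 0.129. The effect on Irf9 was higher in DP than in DN3 by 2.13 (SE 0.48, edgeR adjusted p = 0.0126). Of 8 Ifi200 genes none passed in DP (edgeR; 4 at an unadjusted p under 0.05, all higher), with a median of 1.0, and near-identical copies make their counts uncertain.

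The macrophage sums and the interferon sums were both lowest, within autonomy, in RP1138, and their part in each other was not tested. NK-cell transcripts summed to 538 CPM in RP1140A and to 106 to 233 CPM in the other 8 libraries. None of the 3 NK genes tested passed (median -0.85). B-cell markers summed to 1299 to 1838 CPM with no called gene among 3 tested, and Ms4a1 had no read. Thymic stroma markers summed to 135 to 215 CPM, with no call among 4 tested and Foxn1, Krt5 and Krt14 at 0. Erythroid, granulocyte and kidney markers each stayed below 10 CPM in sum in every library, with 1, 0 and 1 genes tested and none called. Of mature single-positive T-cell markers, 11 were tested and none passed (median 0.37), with sums of 289 to 469.5 CPM in turnover and 314 to 542 CPM in autonomy.

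Of 13 mitochondrially encoded transcripts tested, mt-Nd2, mt-Nd4, mt-Co3 and mt-Cytb rose and none fell, with a median of 0.53. No call was left without RP1140B or without RP1141A. All mitochondrial transcripts together took 2.88% ± 0.18 of the counts in turnover (SD, n = 4) and 3.38% ± 0.28 in autonomy (SD, n = 5), and the exact two-sided permutation test gave p = 0.0317 (0.0635 after Benjamini-Hochberg adjustment over 4 library properties). The share of the 50 most counted genes was 12.7% in turnover and 13.8% in autonomy (exact permutation p = 0.0159, the smallest that 4 against 5 libraries can give, adjusted 0.0635). Total counts (exact permutation p = 0.46) and genes detected (p = 0.175) did not differ beyond the spread. mt-Nd2, a subunit of complex I, stood at 574, 506, 553 and 485 CPM in turnover and at 914, 1025, 714, 707 and 875 CPM in autonomy (0.68, SE 0.13, edgeR adjusted p = 0.0228). mt-Nd4, of the same complex, rose by 0.52 (SE 0.10, adjusted p = 0.0254).

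Without RP1140B, RP1141A or RP1133 neither mt-Nd2 nor mt-Nd4 was called, and without RP1141B mt-Nd2 was not (up to 0.0808 and 0.0811). mt-Co3 rose by 2.66 (SE 0.61, edgeR adjusted p = 0.0472), but RP1136 alone held 228 CPM where the other autonomy libraries held 28.2 to 65.6 CPM and turnover 4.67 to 19.1 CPM. Its change without RP1136 was 1.87 (edgeR adjusted p = 0.0713). The call was also lost without RP1135 and without any turnover library (up to 0.117). mt-Cytb, named because its value was seen, rose by 0.53 (SE 0.12, adjusted p = 0.0493), kept without RP1136 or RP1137 and lost without each of the other 7 (up to 0.125). Of 34 nuclear genes of oxidative phosphorylation none passed (edgeR; 8 higher and 0 lower at an unadjusted p under 0.05), with a median of 0.19.

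Chaperone and proteasome genes rose in part. Of 15 heat shock and chaperonin genes, Dnaja1 and Hspa8 rose and none fell, with a median of 0.39. Dnaja1, a J-domain co-chaperone of Hsp70, stood at 317, 315, 266 and 290.2 CPM in turnover and at 433, 567, 450.1, 609 and 537 CPM in autonomy (0.81, SE 0.13, edgeR adjusted p = 0.013, called in all 9 fits). Hspa8, the constitutive Hsp70, rose by 0.77 (SE 0.15, adjusted p = 0.026, lost without RP1140B, RP1141A or RP1141B, up to 0.0812), and by 0.73 in DN3 (SE 0.15, adjusted p = 0.00909). Hspa5, the chaperone BiP of the endoplasmic reticulum, was the call among 20 unfolded-protein and integrated-stress genes (median 0.23). Hspa5 rose by 0.75 (SE 0.15, edgeR adjusted p = 0.027, lost without RP1140B, RP1141A, RP1141B, RP1133 or RP1135, up to 0.088). Of 25 proteasome subunits, Psmc2 (0.69, SE 0.14, adjusted p = 0.0301) and Psmc3 (0.61, SE 0.13, adjusted p = 0.0376) rose, none fell, 23 estimates were above 0, and the median was 0.36. Both encode ATPases of the proteasome base. Without any turnover library, RP1133 or RP1135 both calls were lost, and without RP1136 that of Psmc2 (up to 0.082 for Psmc2 and 0.1 for Psmc3).

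Metabolic and translational genes moved in both directions. Ldhb (ENSMUSG00000030246, chr6:142490249-142507957), the lactate dehydrogenase chain that favours pyruvate formation, stood at 1128, 1024, 1021 and 989 CPM in turnover and at 2099.9, 2189, 1810.0, 1776 and 1655 CPM in autonomy. The groups were well apart, with a log2 change of 0.87 (SE 0.10, edgeR adjusted p = 0.00262, called in all 9 fits). Ldhb was the rise among 20 glycolysis genes, of which 2 fell (median -0.08). Tpi1, triose phosphate isomerase, stood at 83.4, 94.7, 73.1 and 63.3 CPM against 43.0, 25.0, 26.3, 20.5 and 29.1 CPM (-1.45, SE 0.26, adjusted p = 0.0163, lost without RP1140B at 0.0709). Pdk1, which inhibits pyruvate dehydrogenase, fell by 0.75 (SE 0.17, edgeR adjusted p = 0.046, kept without RP1138 and lost without each of the other 8, up to 0.135).

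Of 60 cytosolic ribosomal protein genes, Rps4x and Rpl4 fell and none rose, with a median of -0.28. Of the estimates, 48 were below 0 and 12 above. At an unadjusted edgeR p under 0.05, 22 were lower and 2 higher. The groups did not overlap for 11 members, all lower, beside 8.08% of all genes tested. Rps4x, of the small subunit, stood at 758, 843, 941 and 812 CPM in turnover and at 426, 417, 494, 496 and 524 CPM in autonomy (-0.83, SE 0.11, edgeR adjusted p = 0.00434, called in all 9 fits). Rpl4 fell by 0.38 (SE 0.09, adjusted p = 0.0471, kept without RP1138 and lost without each of the other 8, up to 0.131). Ribosomal protein genes have many pseudogenes, and how their reads were assigned is uncertain. Nop56, a core protein of nucleolar RNA modification, was the call among 28 Myc targets of ribosome biogenesis (0.61, SE 0.13, edgeR adjusted p = 0.0311, lost without RP1140B, RP1141A, RP1141B, RP1133, RP1135 or RP1137, up to 0.0875), whose median was 0.24. Vars, valyl-tRNA synthetase, fell by 1.64 (SE 0.35, adjusted p = 0.0359, kept without RP1135, RP1137 or RP1138 and lost without each of the other 6, up to 0.107). Of 25 sterol and fatty acid synthesis genes none passed (edgeR; 1 higher and 3 lower at an unadjusted p under 0.05), with a median of -0.29.

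Among the largest falls were genes outside these groups. Tbc1d19, a TBC-domain protein, stood at 31.7, 62.0, 63.3 and 35.0 CPM in turnover and at 2.20, 2.63, 13.6, 3.91 and 2.59 CPM in autonomy. RP1136 held the highest autonomy value, still below turnover, and the log2 change was -3.25 (SE 0.55, edgeR adjusted p = 0.0157, lost without RP1140B at 0.0532). The fall was larger than in DN3 by 2.70 on the log2 scale (SE 0.64, edgeR adjusted p = 0.0172), where the change was -0.55. Plekhg3 stood at 10.6, 10.8, 3.37 and 9.78 CPM in turnover, while 4 of the 5 autonomy libraries held no read and RP1133 a single read (0.20 CPM). It passed the test (edgeR adjusted p = 0.0123, lost without RP1140B at 0.0532), and with so few reads in autonomy no fold is given. Ankrd28 (ENSMUSG00000014496, chr14:31698768-31830651), a regulatory subunit of protein phosphatase 6, stood at 134, 98.1, 141 and 102 CPM against 38.0, 21.0, 49.3, 31.9 and 22.2 CPM (-1.87, SE 0.27, adjusted p = 0.00832, called in all 9 fits).

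Arhgap18 fell by 2.42 (SE 0.54, edgeR adjusted p = 0.0444) and was kept without RP1137 and lost without each of the other 8 libraries (up to 0.131). Sgpp1, a sphingosine-1-phosphate phosphatase, fell by 1.71 (SE 0.38, adjusted p = 0.0432), a call kept without RP1140A, RP1135 or RP1138 and lost without each of the other 6 (up to 0.117). Fkbp5, a co-chaperone of the glucocorticoid receptor and one of its targets, fell by 1.14 (SE 0.20, edgeR adjusted p = 0.016, lost without RP1140B at 0.0605). It stood at 131, 220.3, 247 and 156 CPM in turnover and at 80.8, 96.6, 78.8, 81.9 and 90.2 CPM in autonomy. The other 9 tested glucocorticoid-responsive genes did not pass, and the median of that list was 0.09.

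Lists with no call in DP were early progenitor genes (4 tested, median -0.55), gamma-delta lineage genes (7 tested, 0.60), p53 and its targets (20 tested, -0.02), homing and egress receptors (14 tested, 0.14) and MHC class I genes (17 tested, 0.08). At an unadjusted p under 0.05 they held 0, 2, 1, 4 and 3 higher and 0, 1, 1, 2 and 1 lower genes in edgeR. The V(D)J recombination list (15 tested) and the E protein list (7 tested) held only the falls of Dntt and of Tcf12 named above, with medians of -0.12 and 0.18. Zfp36 was the call among 10 immediate early genes (median 0.53). All lists were chosen with earlier results of these data known, so their counts describe these libraries and are not independent evidence of a direction.

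**Figure D5:**
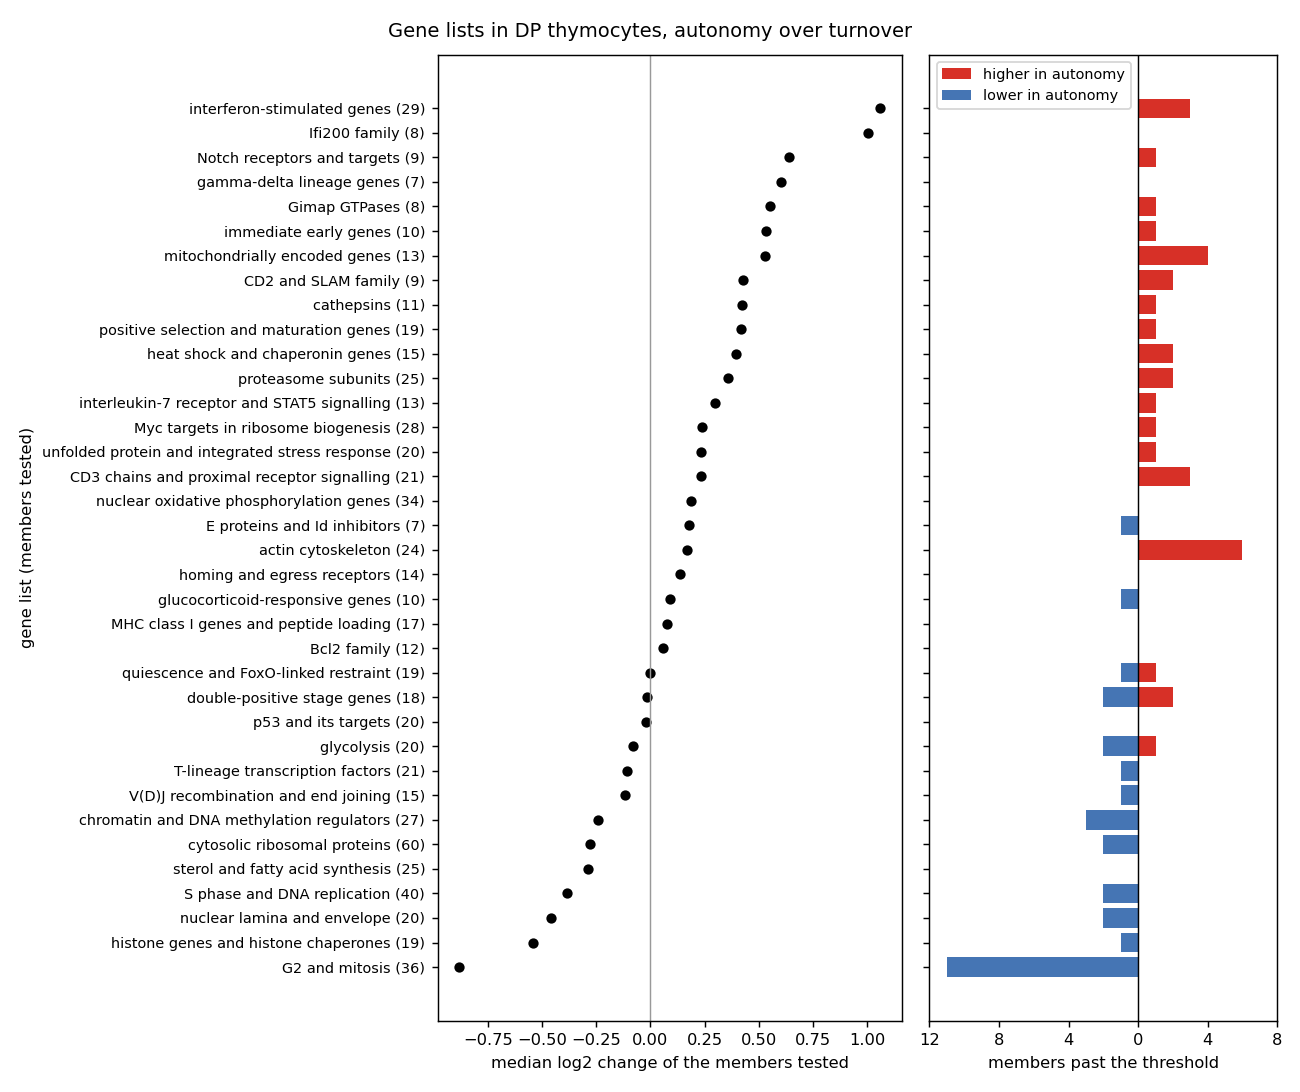
Left, the median log2 change of autonomy over turnover (horizontal axis) of each pathway or stage list with at least 5 genes tested (vertical axis, number tested in brackets). Right, the number of members past an edgeR adjusted p of 0.05, higher to the right and lower to the left. G2 and mitosis has the lowest median, -0.88, and the most calls, 11 lower; interferon-stimulated genes have the highest median, 1.06, with 3 calls.

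The authors' deposited DESeq2 table for DP lists 854 genes with an adjusted p under 0.05. It comes from libraries of the same study, so overlap with it is not independent evidence. All 178 genes called here were among them, with the same sign. Some named genes that did not pass here had a DESeq2 adjusted p under 0.05 there. They were Il7r (0.00683), Myc (0.0086), Ptcra (0.00988), Cd69 (0.0143), Il2ra (0.0165), Rag2 (0.0411) and Bcl11b (0.0458). In the authors' deposited table Ctse had a log2 fold change of 5.10 and Igf2bp3 of 1.90.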

How the data were processed

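RNA-seq reads were counted per Ensembl gene by the authors, and the deposited count table holds raw counts. The submitters' processing notes name FastQC, HISAT2, featureCounts and DESeq2 and the builds mm10 and GRCm38. Their versions, the annotation and the strand setting are not stated there, so overlapping and antisense genes and near-identical copies are uncertain. The authors' deposited DESeq2 table for DP gives the mean normalised count signal, log2 fold change and its error, a test score (the Wald statistic) and p-values per gene. It was used only for its calls, 2 fold changes and the adjusted p of named genes not called here.

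Groups came from the labels. Genes passing edgeR's filterByExpr were scaled by TMM and tested with the quasi-likelihood test (R 4.3.3, edgeR 4.0.16), autonomy against turnover in the 9 DP libraries, with Benjamini-Hochberg adjustment over all genes tested and a threshold of 0.05. The difference between DP and DN3 was an interaction in a model of all 18 libraries. Both scripts were tested on simulated data. Total counts ran from 5032273 to 24191044 per DP library, and a read floor of 3 counts per library set lower bounds. Polymerase-copied reads without molecular identifiers are not independent molecules.

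The text names the 12 largest rises and 12 largest falls whose higher group averaged 10 CPM or more and whose libraries did not overlap, leaving out predicted genes, pseudogenes and receptor segments, and up to 2 members per list and direction. It also names a fixed set of thymocyte genes and the 6 largest DP to DN3 differences per direction. Prc1, Top2a, Bub1, Cdc20, Ncapd2, Smc4, Pcna, Rad21, Cd3g, Arpc1b, Pfn1, Igtp, mt-Cytb and Samhd1, and genes named as unread or untested, were chosen after their values were seen. The members and all 48 gene lists (38 of pathways and stages, 10 of other cell types or stages) were chosen with earlier results of these data known. Medians of lists that hold a gene with no read in turnover are the same with that gene at its lower bound, since each bound lies above its list's median.

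Alternatives were DESeq2 1.42.0, limma 3.58.1 (voom), RLE or library-total scaling, no filter on low counts, all 18 libraries in one model, A and B libraries of one number summed, a replicate block, each library left out, and RP1133 and RP1135 left out together, the last added after seeing the data. The DN3 comparison was used only beside DP results. A few genes the naming rule picked are not reported here.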

Additional observations from a re-analysis of the deposited data

Results flagged for a closer look

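Of 200 groups of libraries examined for one library far from the others, 13 had one by Dixon's 95% criterion, and chance alone gives about 1 in 20. Far is meant relative to the spread of the other libraries, so a gap can be small in CPM. In autonomy, RP1133 was far above the others for C1qc (34.6 CPM), RP1136 for mt-Co3 (228 CPM) and Tbc1d19 (13.6 CPM), and RP1138 for Myc (33.7 CPM). RP1136 was far below the others for Nop56 (494 CPM), and RP1137 was the most deeply sequenced autonomy library (2.0076e+07 counts). In turnover, RP1141A was above the others for Tcf12 (557 CPM) and Actb (9540.5 CPM, beside 8848 to 8913.5 CPM) and below them for Plekhg3 (3.37 CPM). RP1140A was above the others for Lat (1929 CPM, beside 1813 to 1825 CPM) and for the summed NK and innate lymphoid markers (538 CPM). It was below them for Ccr9 (2048 CPM), and RP1140B was low for Slamf6 (435 CPM).

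Among the named genes called in DP, the autonomy effect differed between DP and DN3 for 30 by the edgeR interaction test. It is given here as the log2 effect in DP minus that in DN3. Lower in DP were the genes of mitosis and its machinery Anln (-2.72), Ccna2 (-2.54), Kif15 (-2.38), Plk1 (-2.33), Bub1b (-2.18), Ncaph (-2.15), Mki67 (-2.15) and Ube2c (-1.80). Also lower were the genes of replication and the nucleus Nup205 (-2.12), Pold1 (-1.80), Tmpo (-1.67), Lmnb1 (-1.59), Dnmt1 (-1.43), Mcm6 (-1.36) and H2afx (-1.35). The remaining lower ones were Tbc1d19 (-2.70), Tpi1 (-1.93), Vars (-1.88) and Rpl4 (-0.79). Higher in DP were Bcl6 (2.49), Irf9 (2.13), Tmsb4x (1.85), Tes (1.72), Tmsb10 (1.68), Lat (1.14), Gimap9 (0.99) and Lck (0.76). For Cmpk2 (7.65), Wscd1 (6.52) and Plekhg3 (-6.32) a group had almost no reads, so these fitted values depend on the prior count and are no bounds. Of the named genes not called in DP, the effect was higher in DP for Ccr9 (4.74, edgeR adjusted p = 0.000125) and Cd69 (2.0, adjusted p = 0.037). In DN3 the Ccr9 change was -4.74 (edgeR adjusted p = 0.000234), beside -0.01 in DP. Il7r passed too (edgeR adjusted p = 0.00293), with no read in DP turnover and no value given.

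Without the DN3 turnover library RP1141B, the differences of Bcl6, Tmsb10, Tmsb4x, Wscd1, Gimap9 and Tes were not called (edgeR adjusted p = 0.108, 0.121, 0.0636, 0.119, 0.103 and 0.116). Of the 18 fits with 1 library left out, the difference was called in 4 for Wscd1, 5 for Tes, 6 each for Tmsb10, Bcl6 and Gimap9 and 17 for Tmsb4x. It was called in all 18 for the others of the 30. Such fits are not given for Ccr9, Cd69 and Il7r.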

How the results depend on the processing

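The number of DP calls moved with the method and the libraries, from 178 (89 higher, 89 lower) to 850 in DESeq2 (436 and 414), 434 in limma voom (210 and 224), 279 with all 18 libraries in one model (113 and 166), 16 with A and B libraries of one number summed (8 and 8) and 9 with RP1133 and RP1135 both left out (6 and 3). With 1 library left out it ran from 33 to 252 (13 to 137 higher, 20 to 115 lower). It was 176 with RLE scaling, 193 with library totals (76 and 117) and 224 without a filter. Of the 178, DESeq2 called 178, limma voom 172, RLE scaling 174, library totals 165 and the fit without a filter 164. The model of all 18 libraries called 116 of them and lost 62. Mitotic genes lower numbered 11, and 21 in DESeq2, 20 in voom, 18 with all 18 libraries, 1 with libraries summed, 1 with both left out and 5 to 15 with 1 library left out. The DP to DN3 difference was called for 633 genes, for 1110 in DESeq2 and for 424 to 684 with 1 library left out. Of the 69 named calls, DESeq2 kept 69, voom 66, all 18 libraries in one model 45 and the summed libraries 12. The fits without 1 library kept 18 (RP1140B) to 64 (RP1138). The cause was not tested.

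The DP groups share no replicate number, so no paired fit was possible between them. Libraries of DN3 and DP with the same number correlated in their deviations by 0.00118 to 0.0521, under 0.1, so the numbers were not taken to pair them. With a replicate block the difference was called for 291 genes, 262 of them among the 633, and was lower in DP for 23 mitotic genes in place of 28. Of the 30 named differences it lost those of Lck (edgeR adjusted p = 0.0664), Bcl6 (0.201), Tmsb10 (0.172), Tmsb4x (0.0637), Wscd1 (0.0908), Gimap9 (0.0596) and Tes (0.0507).

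Genes under a few CPM have few reads in the shallowest libraries, and for them differences were not detectable at this depth.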
